A study of Mus musculus with 238 samples.

Results

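The cerebellum of aged control mice was compared with the other brain regions of the same animals. A control library came from a mouse that received either free feeding (AL, ad libitum, 4 females) or retro-orbital injections of phosphate-buffered saline (PBS, 4 males), all C57BL/6JN mice 19 months old. Among the 238 libraries of the series, 7 were control cerebella, from AL animals 63, 66, 68 and 69 and PBS animals 72, 80 and 84, named here by the mouse numbers of the labels. The fourth PBS mouse, 76, had no cerebellum library among the samples analysed here and was left out. These 7 libraries were set against 85 libraries from 13 other regions of the same 7 mice; choroid plexus and liver were left out by the rule of the comparison. The 13 were motor, visual and entorhinal cortex, anterior and posterior hippocampus, caudate putamen, thalamus, hypothalamus, pons, medulla, olfactory bulb, corpus callosum and subventricular zone (SVZ). Every AL animal was a female of the dietary experiment and every PBS animal a male of the plasma experiment, so sex, cohort, feeding and injection cannot be told apart. The other arms of both experiments, 5 females of the diet-restricted arm (aDR) and 3 males given young mouse plasma (YMP), also had cerebellum libraries. They served as a second set of 8 animals that the comparison itself did not use.

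The cerebellum is built around a repeated circuit. Granule cells, small excitatory neurons that make up most cerebellar cells, receive mossy fibres and send parallel fibres to Purkinje cells, the inhibitory neurons that carry the output of the cortex. Molecular-layer and Golgi interneurons inhibit both, unipolar brush cells relay mossy fibre input, and Bergmann glia are the radial astrocytes that surround Purkinje cell dendrites. The bulk libraries hold RNA from all cells of a dissected piece, so fewer cells of a type and less RNA per cell cannot be told apart in any value below.

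For each animal and gene the measure was a difference: log2 CPM (counts scaled to the library total) in the cerebellum minus the mean log2 CPM of that animal's other regions. A difference of 1 is a doubling of the cerebellum over the geometric mean of the other regions. Cerebellum libraries held 6.63 to 12.99 M counts and the others 1.96 to 32.4 M counts (median 8.87 M). By expression profile, 7 of 7 cerebellum libraries were closest to the cerebellum and 0 of the 85 others were, although 5 other libraries stood closest to a region other than their own label. Markers of the labelled tissue were present: all 21 granule cell genes and 23 of 24 Purkinje cell genes were higher in the cerebellum.

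One cerebellum library stood apart from the other 6. In the AL 68 cerebellum, 138 genes exceeded the highest of the other 6 cerebella by more than 2 log2 units, against 0 to 7 genes for any other cerebellum. Ttr, the thyroid hormone carrier that choroid plexus makes in bulk, was at 1812 CPM in AL 68, at 69.8 CPM in AL 66 and at 0 to 0.782 CPM in the other 5. The 12 choroid plexus genes summed to 3880 CPM in AL 68 and to 167 to 377 CPM in the other 6 cerebella. Dbh, the enzyme that makes noradrenaline, was at 43.7 CPM there and at 0 in the other 6, as was Slc6a2, the noradrenaline transporter, with 34.4 CPM. Dbh and Slc6a2 belong to a list of 7 noradrenergic genes that was chosen after these values were seen. That list summed to 201 CPM in AL 68 and to 17.9 to 61.2 CPM in the others. Lamp5 was at 9.70 CPM there against 0.141 to 2.28 CPM, and Cbln2 at 6.51 CPM against 0 to 0.933 CPM; both were singled out after their values were seen. The 22 forebrain identity factors summed to 165.9 CPM in AL 68 and to 197 to 238.5 CPM in the other 6. This sum includes Neurod2, which was higher in the cerebellum, and 11 of the 22 held at most 3 counts in every cerebellum. Whether AL 68 held forebrain RNA was not tested. Kl, the klotho gene, differed by -1.34 (adjusted p = 0.169, limma) and by -2.35 without AL 68 (adjusted p = 4.84e-05). The part of these RNAs in the results was not tested.

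**Figure D1:**
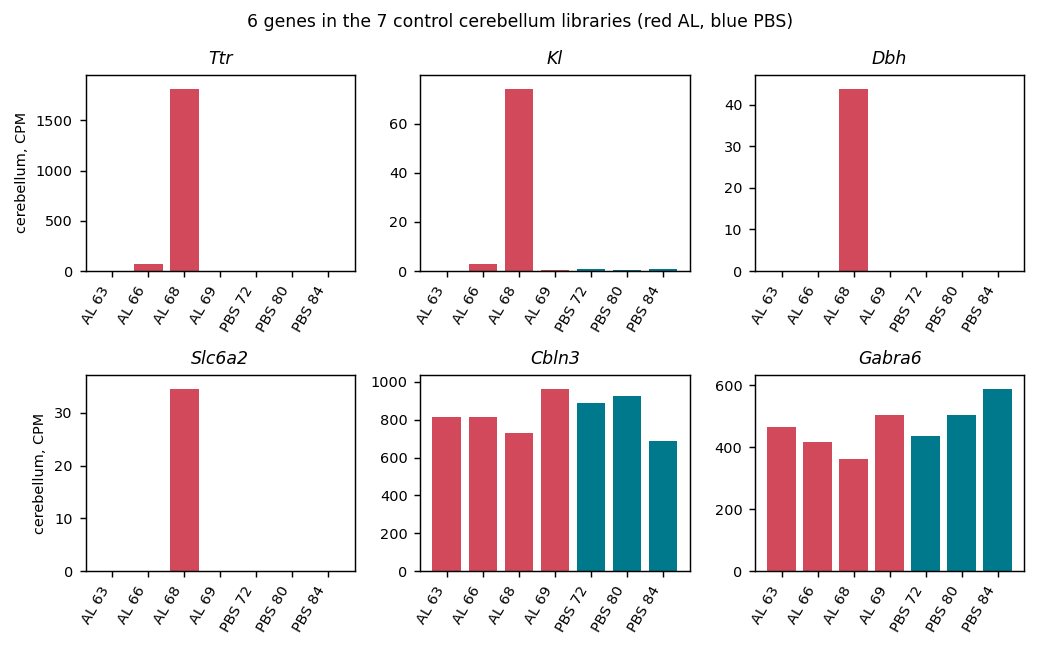
Bars show CPM (y axis, linear from 0) of 6 genes in each of the 7 control cerebellum libraries, AL animals in red and PBS animals in blue. AL 68 is the highest library for Ttr (1812 CPM), Kl, Dbh (43.7 CPM) and Slc6a2, and lies with the other cerebella for Cbln3 (729 CPM) and is the lowest for Gabra6 (363 CPM).

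The sequence before the start site is shown first for 3 of the 15 genes with the largest increase. Cbln3 and Gabra6 rank 1 and 2 among these 15, and Pcp2 ranks 14. The windows below are the 250 bases before the RefSeq start (GRCm38.p6, minus strand for all 3, 5′ to 3′). They are the window of Cbln3, a secreted cerebellin of granule cells (gene at chr14:55878920-55884256, window chr14:55884257-55884506), of Gabra6, a GABA-A receptor subunit of granule cells (gene at chr11:42306437-42321072, window chr11:42321073-42321322), and of Pcp2, a Purkinje cell modulator of G proteins (gene at chr8:3623369-3625547, window chr8:3625548-3625797). Capitals mark 2 motifs searched on both strands: CAGATG (reverse CATCTG), an E-box of the kind that basic helix-loop-helix factors such as Neurod1 bind, and AGGTCA (reverse TGACCT), the half-site of nuclear receptors such as Rora.
Cbln3: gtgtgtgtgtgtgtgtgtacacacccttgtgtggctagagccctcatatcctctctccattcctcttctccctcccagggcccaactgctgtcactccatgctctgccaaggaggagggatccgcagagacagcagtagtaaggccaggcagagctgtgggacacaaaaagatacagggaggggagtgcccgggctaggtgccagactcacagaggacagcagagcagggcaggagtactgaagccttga
Gabra6: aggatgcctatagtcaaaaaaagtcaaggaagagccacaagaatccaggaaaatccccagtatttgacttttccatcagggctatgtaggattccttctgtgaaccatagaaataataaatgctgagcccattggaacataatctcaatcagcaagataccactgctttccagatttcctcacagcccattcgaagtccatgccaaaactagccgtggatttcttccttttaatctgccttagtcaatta
Pcp2: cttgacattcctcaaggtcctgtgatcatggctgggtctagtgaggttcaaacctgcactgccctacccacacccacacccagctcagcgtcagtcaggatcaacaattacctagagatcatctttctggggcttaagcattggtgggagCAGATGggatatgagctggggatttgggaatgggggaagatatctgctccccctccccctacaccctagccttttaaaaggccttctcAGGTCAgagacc
The Pcp2 window held 1 match to each motif, and those of Cbln3 and Gabra6 held no match. The window of Neurod1, which ranks 12 among the 15 and is not printed, also held no match. Among all 19827 windows of this length in the RefSeq table, 15.7% held the E-box and 14.5% the half-site. Of the 15 genes with the largest increase, 7 had a window in the table, and 3 of these held the E-box and 2 the half-site. Of the 15 with the largest decrease, 3 had a window, with 1 and 0 matches.

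Regions differed in most genes. Of 15345 genes tested, 11557 passed limma's test at an adjusted p under 0.05 (75.3%), 5458 higher in the cerebellum (35.6%) and 6099 lower (39.7%). At a difference of more than 2-fold, tested with limma's treat, 1826 genes were called (11.9%), 763 higher (4.97%) and 1063 lower (6.93%). The cerebellum stood above each of the 13 regions in 1216 genes (7.92%) and below each in 989 (6.45%). Scaling by plain library totals in place of TMM raised the median of all genes by 0.115 and turned the splits to 6737 higher and 4818 lower, to 899 and 927 over 2-fold, and to 1537 above and 758 below every region. Genes over 2-fold without AL 68 numbered 821 higher and 1184 lower. The AL animals alone gave 9674 calls (63.0%) and the PBS animals alone 10170 (66.3%).

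The number of genes that differed varied between regions. Against the pons, 647 genes were higher and 683 lower by more than 2-fold (4.22% and 4.45%, 6 animals), the fewest of the 13 regions. Against the caudate putamen, 1065 were higher and 1321 lower (6.94% and 8.61%, 7 animals), the most. The cortical regions and the hypothalamus lay near that upper end. The anterior hippocampus, with 626 higher and 966 lower (4.08% and 6.30%), lay near the pons in the number of genes higher in the cerebellum. The number of animals differed between regions, from 5 for corpus callosum to 7.

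The 15 genes with the largest increase were Cbln3, Gabra6, Cnpy1, Crtam, Fat2, Ppp1r17, Car8, Il20rb, Hes3, Bcl2l15, Nrk, Neurod1, Iltifb, Pcp2 and Ltbp2, with differences from 10.82 down to 6.19. In all 15, each of the 7 cerebellum libraries lay above all 85 other libraries, as it did in 3.88% of the genes tested. The rule chose these genes for large differences in the same libraries, so this count is no separate test. All 15 were also higher by more than 2-fold in the 8 treated animals.

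Cbln3 reached 815, 815, 729 and 959 CPM in the cerebella of AL 63, 66, 68 and 69 and 886, 925 and 688 CPM in those of PBS 72, 80 and 84. The other regions of the same animals averaged 0.734, 1.51, 0.152 and 0.374 CPM (AL) and 0.301, 0.992 and 2.26 CPM (PBS). No library overlapped: the highest of the 85 others held 26.0 CPM, and the medulla had the highest regional mean at 7.33 CPM. The difference was 10.82 (SE 0.142, adjusted p = 1.64e-11, limma), and 10.76 (SE 0.111) in the 8 treated animals.

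Gabra6 read 467, 416, 363 and 505 CPM in the AL cerebella and 437, 504 and 586 CPM in the PBS cerebella. Elsewhere its mean over the 7 animals was 0.390 CPM, and no other library passed 14.8 CPM. The difference was 10.69 (SE 0.138, adjusted p = 1.64e-11, limma). For Cbln3 and Gabra6 the size of the difference depends on the count added before the logarithm: with 0.5 in place of 2, it became 11.86 and 12.29.

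Car8, the carbonic anhydrase-related protein that binds the IP3 receptor of Purkinje cells (chr4:8141493-8239041), belonged to the same 15. Its cerebellum levels were 2596, 2409, 1985 and 2672 CPM in AL animals and 2212, 3043 and 3408 CPM in PBS animals, against 11.7 to 19.9 CPM as animal means of the other regions. Every cerebellum stood more than 7 log2 units above the animal's other regions, and the mean difference was 7.62 (SE 0.0847, adjusted p = 6.5e-12, limma). Pcp2 read 466.4, 379, 295 and 408 CPM in AL cerebella and 428, 542 and 435 CPM in PBS cerebella. Its level elsewhere was lower but not 0, with 5.01 to 6.65 CPM as animal means, and its difference was 6.23 (SE 0.103).

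Neurod1, a proneural factor kept on in granule cells, ranged from 391 to 618 CPM in the cerebellum and averaged 15.0 CPM elsewhere, highest in the anterior hippocampus at 39.9 CPM. Cnpy1, a regulator of FGF signalling at the midbrain-hindbrain boundary, ranged from 183 to 268 CPM against 0.524 CPM. Fat2, the giant protocadherin of parallel fibres, ranged from 81.0 to 162 CPM against 0.569 CPM. Ppp1r17, a Purkinje cell substrate of cGMP-dependent kinase, had its highest level outside the cerebellum in the hypothalamus, at 19.8 CPM. Crtam, an immune adhesion molecule, differed by 8.44, the cytokine receptor subunit Il20rb by 7.45 and the kinase Nrk by 6.88. Iltifb, with a difference of 6.27, is a near-identical copy of the cytokine gene Il22, so its reads could be split between the copies and its value is uncertain.

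**Figure D2:**
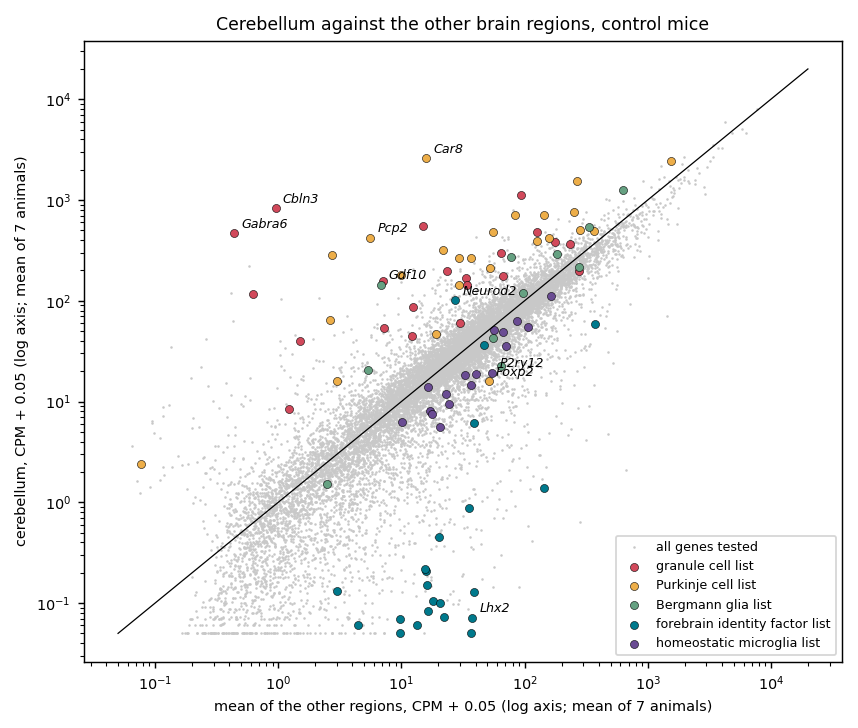
Each point is a gene, with its mean CPM over the other regions on the x axis and in the cerebellum on the y axis (both log axes, 0.05 added, means of 7 animals). Colours mark 5 gene lists. Cbln3 and Gabra6 lie far above the diagonal with 831 and 468 CPM in the cerebellum, and Lhx2 far below it.

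Granule cell genes were higher as a group. All 21 were higher in the cerebellum, 19 by more than 2-fold (background 35.6% and 4.97%). Above every region stood 14 (background 7.92%), and the median difference of the 21 was 3.19 against -0.0389 over all genes. The 19 calls over 2-fold were unchanged in number without AL 68 and in the treated animals. Among the transcription factors, Zic1 differed by 4.24, Zic2 by 3.65, Barhl2 by 5.98, Pax6 by 3.20 and Etv1 by 2.06. Zic1 was not confined to the cerebellum, with 198 CPM there and 87.3 CPM in the thalamus. Chn2, a Rac-regulating chimaerin, rose to 921 to 1227 CPM against 94.4 CPM. Cadps2, a priming factor of dense-core vesicles, differed by 2.67, and Reln, the secreted guidance protein reelin, by 2.63. Slc17a7, the vesicular glutamate transporter of granule cells and cortical neurons, shows a limit of the measure: its mean log2 difference was 1.19 (adjusted p = 3.65e-06, limma), yet its mean level was 198 CPM in the cerebellum and 275 CPM elsewhere. Against the median of the other regions in place of their mean, the difference was -0.12, and in edgeR with the mouse as a replicate block it was 0.66 (adjusted p = 0.102). The motor cortex held 670 CPM and the hypothalamus 1.16 CPM.

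Purkinje cell genes were also mostly higher. Of 24, 23 were higher, 21 by more than 2-fold and 18 above every region (background 35.6%, 4.97% and 7.92%), with a median difference of 3.01, and the 21 calls held in number without AL 68. Calb1, the calcium buffer calbindin, ranged from 1137 to 1792 CPM against 266 CPM in the other regions. Slc1a6, the Purkinje cell glutamate transporter, differed by 4.46, the parvalbumin gene Pvalb by 4.07, and the LIM factors Lhx1 and Lhx5 by 6.18 and 4.13. Pcp4, a calmodulin-binding peptide, was higher by only 0.85, with 489 CPM in the cerebellum and 907 CPM in the caudate putamen. Rora, the nuclear receptor needed for Purkinje cell survival, was higher by 1.84, but its highest level was in the thalamus (794 CPM against 418 CPM). Foxp2, a forkhead factor also used in striatum, was the exception: 14.4 to 18.2 CPM in the cerebellum against 51.2 CPM elsewhere, a difference of -0.83 (adjusted p = 9.48e-06, limma).

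Genes of the phospholipase C and calcium store signalling of Purkinje cells were mostly higher. Of 15 genes, 13 were higher, all 13 by more than 2-fold, and 7 stood above every region (background 35.6%, 4.97% and 7.92%). The phospholipases Plcb3 and Plcb4 differed by 1.30 and 2.01, the scaffold Homer3 by 4.00, the IP3 receptor Itpr1 by 2.67 and the IP3 phosphatase Inpp5a by 2.81. For the G protein alpha subunits, Gnaq differed by 0.03 (adjusted p = 0.551, limma), at 338 CPM against 340 CPM, and Gna11 differed by -0.22. Gnaq was called higher, by small amounts, without AL 68 (0.09, adjusted p = 0.0258), with plain totals (0.15, adjusted p = 0.00863) and against the median of the other regions (0.13, adjusted p = 0.0123), all in limma. Without AL 68, 14 genes of the list were higher. With pons and medulla left out of the other regions, 9 genes of the list were over 2-fold.

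Genes of the other cerebellar cell types were mixed. Of 13 interneuron genes, 8 were higher and 3 lower, with a median of 0.345 (background 35.6% and 39.7% of all genes). Over 2-fold, 5 were higher and 1 lower (background 4.97% and 6.93%). Without AL 68, 9 were higher and 3 lower. The factors Tfap2b and Tfap2a differed by 5.41 and 3.48 and the receptor Kit by 2.68. By contrast Gad1, the enzyme that makes GABA, differed by 0.55, Gad2 by -0.43 and Nxph1, an alpha-neurexin ligand, by -1.35. Slc6a5, the glycine transporter of Golgi cells, was higher by 4.27, although the medulla held 117 CPM against 11.5 CPM in the cerebellum. All 5 unipolar brush cell genes were higher, 4 by more than 2-fold, led by Eomes at 5.04 (12.1 to 33.9 CPM); the olfactory bulb held 106 CPM of Eomes. Of 11 Bergmann glia genes measured, 7 were higher, 3 by more than 2-fold, and 1 was lower (7, 4 and 2 without AL 68). Gdf10, a TGF-beta family ligand of Bergmann glia, read 130, 149, 132 and 152 CPM in AL cerebella and 151, 138 and 161 CPM in PBS cerebella, against 6.14 to 7.84 CPM elsewhere. Its difference of 4.58 (SE 0.0667) varied little between animals, from 4.44 to 4.73. Fabp7, a fatty acid binding protein of radial glia, differed by -0.38, with its highest level in the olfactory bulb (490 CPM); with that region left out Fabp7 differed by -0.01 (adjusted p = 0.903, limma).

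**Figure D3:**
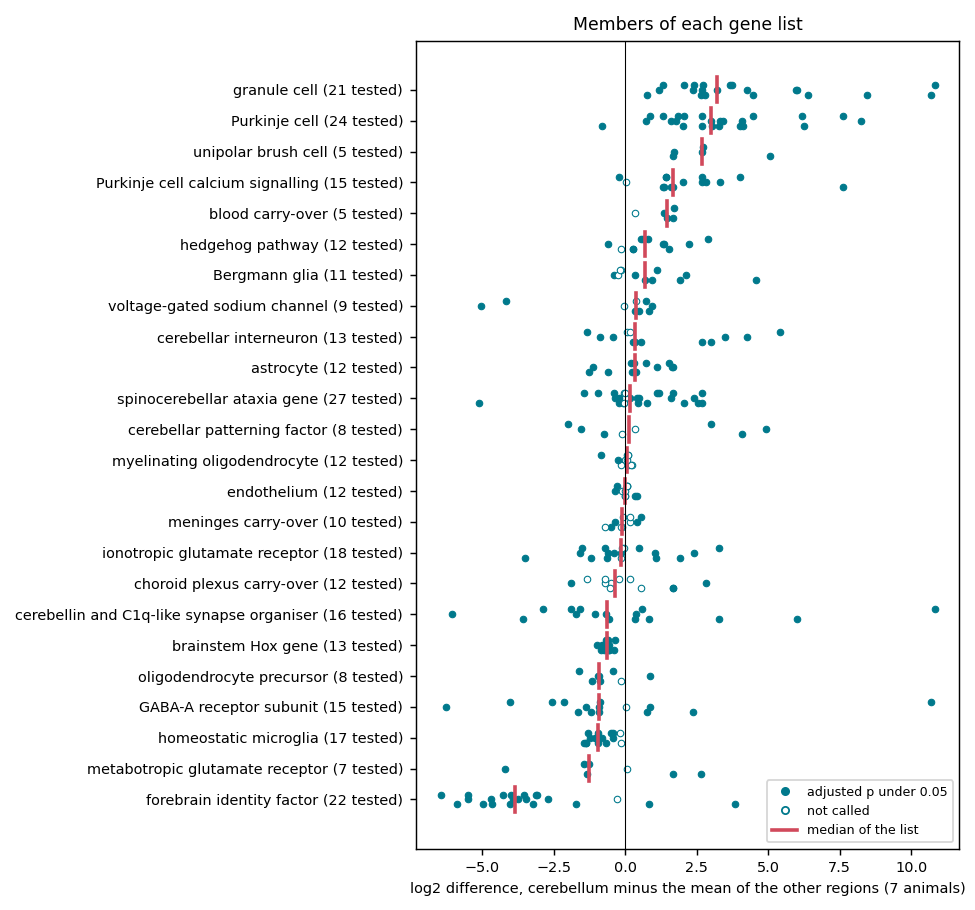
Each point is a gene, placed by its mean log2 difference over 7 animals (x axis), in rows by gene list; filled points have an adjusted p under 0.05 and the red bar is the list's median. The granule and Purkinje cell rows have the highest medians (3.19 and 3.01) and the forebrain identity row the lowest (-3.85).

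En2 and En1, engrailed factors of the midbrain-hindbrain territory, differed by 4.91 and 4.10, at 5.66 to 12.5 CPM and 4.41 to 7.28 CPM; En1 was higher still in the pons (9.75 CPM). Of 11 patterning factors, 8 were tested, and 3 were higher and 3 lower (background 35.6% and 39.7%). Gbx2 differed by -2.01, with its highest level in the thalamus (83.8 CPM), and Wnt1 held 0 counts in every cerebellum. Fgf8, Atoh1 and Ptf1a, which act in the embryo, were too low to test.

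Of 22 forebrain identity factors, 19 were lower, all 19 by more than 2-fold (background 39.7% and 6.93%), and 2 were higher. The median was -3.85, and -3.96 with genes at 0 set to their bound. Lhx2, a LIM factor of cortex and hippocampus, had 2 counts over all 7 cerebella against 30.5 to 41.7 CPM elsewhere, a ratio of 1350 (95% counting interval 373 to 11100, exact Poisson, counting error only). Emx1, a factor of the dorsal telencephalon, had 0 counts in each of the 7 cerebella and was at least 21.8-fold lower than the arithmetic mean of the other regions in every animal, taking 3 counts per library as the floor. Tbr1 and Fezf2, factors of cortical projection neurons, differed by -3.25 and -4.70, and Dlx1, of forebrain inhibitory neurons, by -5.51. Fezf2 was not called in edgeR with the mouse as a replicate block (-6.88), but was called in DESeq2 with the block (-7.18, adjusted p = 4.64e-17). Neurod2, a proneural factor of both cortical and granule neurons, went the other way: 79.6 to 118 CPM in the cerebellum, a difference of 3.84, with 89.8 CPM in the anterior hippocampus. Nr4a2 was called higher (0.81) although its mean level was 36.8 CPM against 46.7 CPM, and it lost this call with the mouse as a replicate block in edgeR (0.55, adjusted p = 0.0812) and DESeq2 (0.56, adjusted p = 0.116). Neurod6 differed by -0.29 (adjusted p = 0.0774, limma), and by 0.96 over only the regions sampled in all 7 animals.

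Hox genes, which mark the hindbrain and spinal cord, were at or near 0 in the cerebellum. Of 17, 13 were tested. All 13 were called lower (background 39.7%), none by more than 2-fold (background 6.93%), and the median was -0.658. Their summed level was 0 to 0.399 CPM in the cerebella, and each of the 13 was highest in the medulla. Hoxb5 held 0 counts in every cerebellum and 28.8 CPM in the medulla. Its log2 difference was -1.01, and -0.11 (adjusted p = 0.501, limma) with pons and medulla left out of the other regions. The list's calls depended on the regions compared and on the test: 0 of the 13 were called without pons and medulla, against the median of the other regions, or in edgeR or DESeq2 with the mouse as a replicate block.

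The largest decreases were in genes of forebrain projection neurons. Among the 15 were Ddn, Nrgn, Chrm1, Lhx2, Kcnv1, Icam5, Gabra5, Camkv, Cbln2, Cpne7, Kcng1, Lamp5, Ctxn1 and Egr3, with differences from -6.93 to -5.77. All 15 were lower by more than 2-fold in the treated animals. In the control libraries 13 stood below every region (6.45% of genes tested did). For 4 of the 15, each cerebellum lay below all 85 other libraries (2.22% of genes tested did). The rule chose the 15 from these control libraries, so the last 2 counts are no separate test. Nrgn, neurogranin, a calmodulin-binding protein of dendritic spines, read 3.42, 1.02, 3.19 and 1.58 CPM in AL cerebella and 2.27, 1.69 and 1.004 CPM in PBS cerebella. The same animals' other regions averaged 618 to 748 CPM. Nrgn reached 1776 CPM in the visual cortex and only 5.78 CPM in the medulla, and differed by -6.72 (SE 0.174, adjusted p = 3.88e-10, limma). In the treated animals its difference ranged more widely, from -8.01 to -1.72. Ddn, dendrin of the postsynaptic density, had 7 counts over all 7 cerebella against 89.5 CPM elsewhere, a ratio of 920 (447 to 2290). For Chrm1, the muscarinic acetylcholine receptor M1, 25 counts gave a ratio of 331 (224 to 511). Icam5 (telencephalin), the kinase-like Camkv and the calcium sensor Cpne7 differed by -6.45, -6.24 and -6.03. Cbln2 was at or below 0.0912 CPM in 5 cerebella, at 0.933 CPM in AL 63 and at 6.51 CPM in AL 68; its difference was -6.05 with AL 68 and -6.68 without it.

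**Figure D4:**
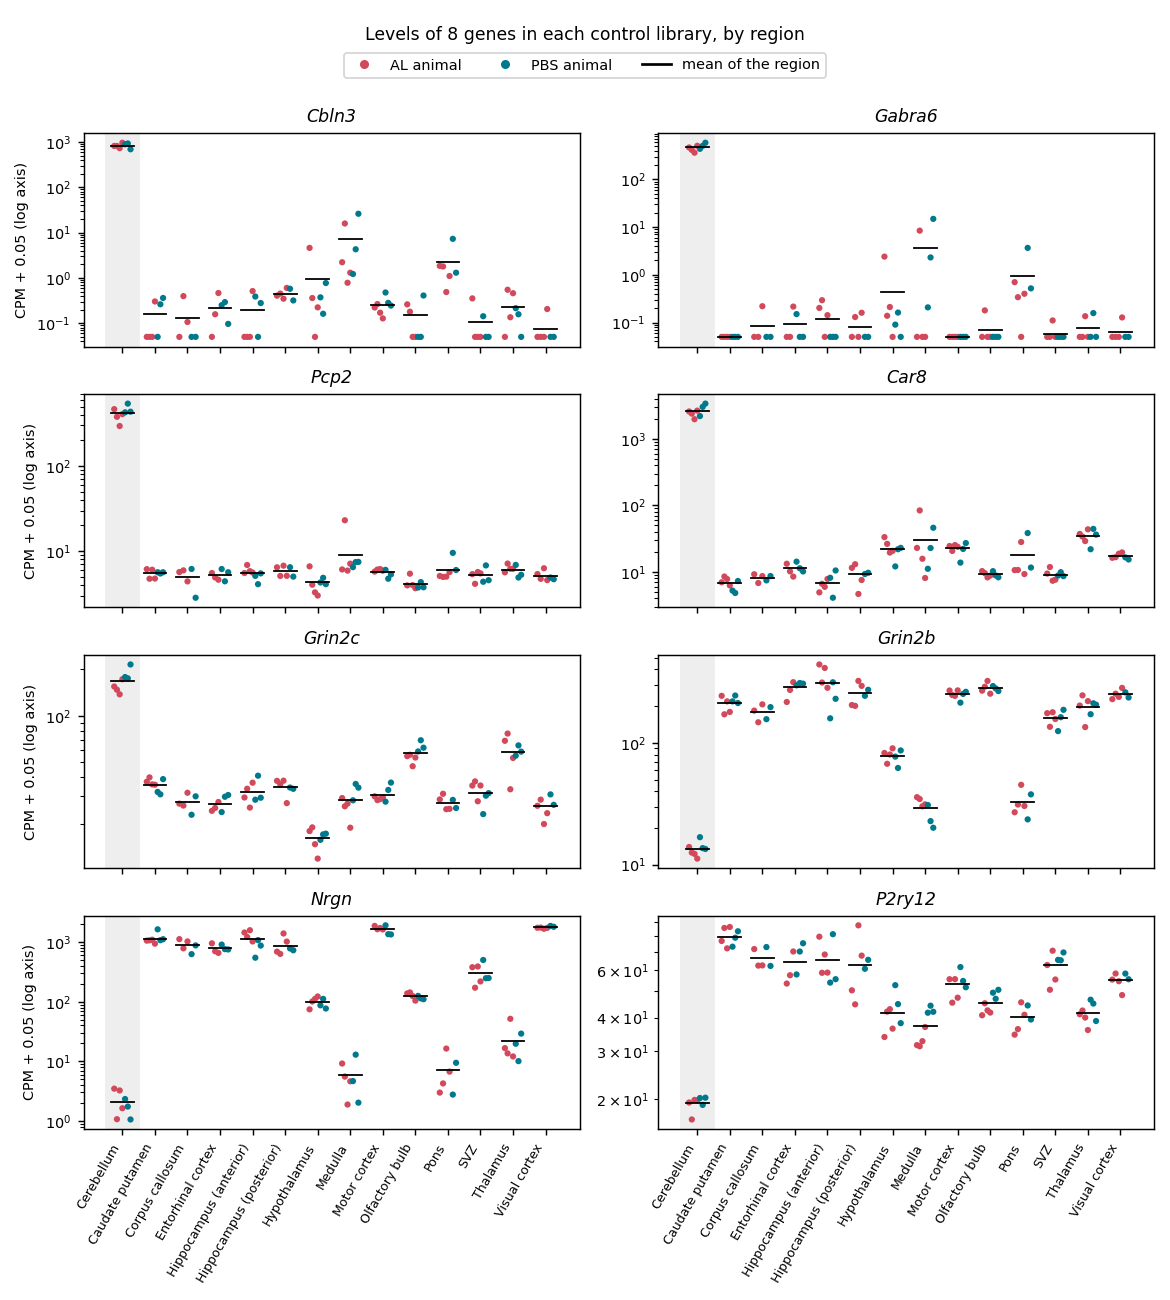
Points show CPM plus 0.05 (log y axis) of 8 genes in each control library, by region (x axis), AL animals in red and PBS animals in blue, with the region's mean as a black line. The cerebellum column holds the highest points for Cbln3, Gabra6, Pcp2 and Car8 and the lowest mean for Grin2b, Nrgn and P2ry12.

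Receptor subunits differed in both directions within their families. Of 18 ionotropic glutamate receptor genes, 6 were higher and 9 lower, with a median of -0.155 (background 35.6% and 39.7% of all genes). Over 2-fold, 3 were higher and 4 lower (background 4.97% and 6.93%). Among the NMDA receptor subunits, which pair an obligatory Grin1 with a modulatory partner, Grin2b read 13.9, 12.5, 12.2 and 11.2 CPM in AL cerebella and 16.8, 13.6 and 13.4 CPM in PBS cerebella, against 176 to 202 CPM elsewhere. Its difference was -3.52 (SE 0.0687, adjusted p = 8.54e-11, limma). Grin2c went the other way, with 155, 148, 138 and 173 CPM in AL cerebella and 178, 175 and 215 CPM in PBS cerebella, against 29.3 to 36.0 CPM elsewhere, a difference of 2.41 (SE 0.0661). The groups of libraries did not meet for Grin2c: the highest other library held 76.7 CPM. Grin2a differed by -0.04 (SE 0.0576, adjusted p = 0.506, limma), but was called lower without pons and medulla (-0.27, adjusted p = 0.00173) and against the median of the other regions (-0.17, adjusted p = 0.0176). Grin1 differed by -0.40. Grid1 differed by -1.60. Gria4, the AMPA receptor subunit of Bergmann glia and granule cells, was higher by 1.90, while Gria2 and Gria3 differed by -0.62 and -0.73.

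Of 8 metabotropic glutamate receptors, 7 were tested, and 2 were higher and 4 lower (background 35.6% and 39.7%). Grm4, the presynaptic receptor of parallel fibres, was higher by 2.65, and Grm3, Grm5, Grm7 and Grm8 were the lower ones. Grm5, a receptor of forebrain synapses, ranged from 4.92 to 17.3 CPM against 201 CPM, a difference of -4.20. Grm2 differed by 0.05 (adjusted p = 0.684, limma), and by -0.80 against the median of the other regions.

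Of 15 GABA-A receptor subunits, 4 were higher and 10 lower, with a median of -0.926 (background 35.6% and 39.7%). Over 2-fold, 2 were higher and 6 lower (background 4.97% and 6.93%), and 2 and 7 without AL 68. Among the 4 higher ones were Gabra6, Gabrd (2.38) and Gabrb2 (0.84). Gabrd, the extrasynaptic delta subunit that pairs with Gabra6 in granule cells, ranged from 130 to 194 CPM; the caudate putamen held 181.7 CPM. Gabra5, the subunit of hippocampal tonic inhibition, ranged from 0.213 to 3.85 CPM against 111 CPM, a difference of -6.27, and was highest in AL 68. Gabrg3 and Gabra3 differed by -4.03 and -2.58. Gabrq, at 8.50 CPM in AL 68 and lower in every other cerebellum, differed by -2.16 (adjusted p = 0.0114, limma). Without AL 68 it differed by -2.84 and was over 2-fold (adjusted p = 0.00559). With the mouse as a replicate block Gabrq was not called, at -0.71 in edgeR (adjusted p = 0.175) and -0.85 in DESeq2 (adjusted p = 0.124).

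Cerebellins are secreted C1q-like proteins that bridge both sides of a synapse. Of 16 genes of this system, 7 were higher and 9 lower, with a median of -0.629 (background 35.6% and 39.7%). Over 2-fold, 3 were higher and 6 lower (background 4.97% and 6.93%). Cbln1, released by parallel fibres, ranged from 114 to 186 CPM against 7.01 CPM, a difference of 6.01, and Cbln3, which assembles with Cbln1, is given above. Cbln2 and Cbln4, the forebrain members, differed by -6.05 and -3.59. C1ql2, a mossy fibre protein of the hippocampus, differed by -2.89, and C1ql1, made by climbing fibre neurons of the inferior olive, differed by -1.71, with its highest level in the medulla (127 CPM). The neurexins Nrxn2 and Nrxn3, presynaptic partners of cerebellins, differed by 0.57 and 0.82. Adgrb2, an adhesion receptor, differed by -1.91, and Adgrb3, the C1ql1 receptor of Purkinje cells, was higher by 0.33.

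**Figure D5:**
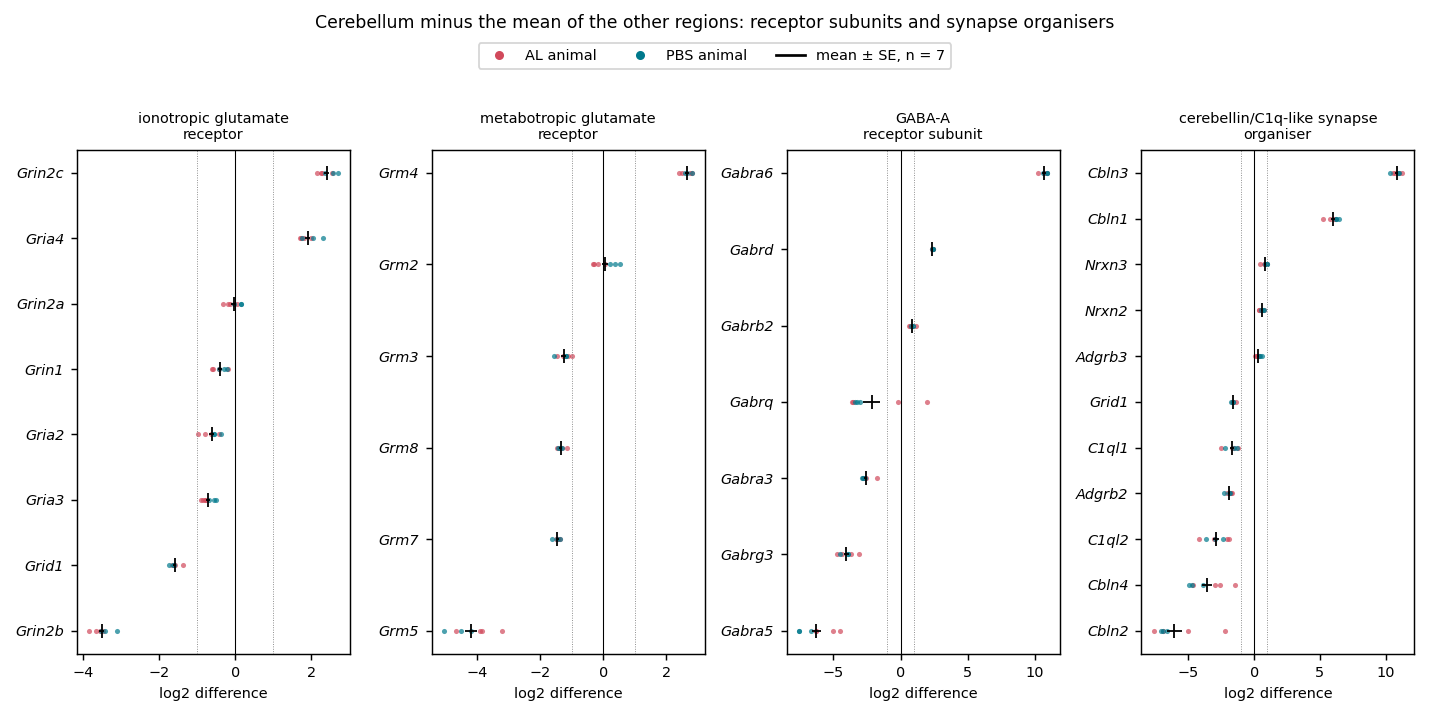
Points show each animal's log2 difference (x axis; AL red, PBS blue) for the members of 4 families that the text names, with the mean and its SE over 7 animals in black and dotted lines at -1 and 1. Within each family members lie on both sides of 0, as Gabra6 (10.69) and Gabra5 (-6.27) do.

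Genes whose mutations cause spinocerebellar ataxias, inherited disorders in which Purkinje cells degenerate, were a mixed list. Of 28, 27 were tested, 14 were higher and 8 lower (7 and 2 over 2-fold, 9 and 2 without AL 68), with a median of 0.169. The 22 called of 27 compare with 75.3% of all genes, and the calls over 2-fold with 4.97% higher and 6.93% lower. The P/Q-type calcium channel gene Cacna1a differed by 2.04 and the T-type channel gene Cacna1g by 2.39. Pdyn, the precursor of dynorphins, differed by -5.12, and Ppp2r2b, a regulatory subunit of protein phosphatase 2A, by -1.47.

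Microglia genes were mostly lower. Of 17 homeostatic microglia genes, 15 were lower (background 39.7%) and none higher, with a median of -0.944. Lower by more than 2-fold were 2 (background 6.93%), and 11 stood below every region (background 6.45%). The count over 2-fold was small and unsteady: 4 without AL 68, 5 in edgeR with the mouse as a replicate block, and 1 without AL 66, AL 69, PBS 80 or PBS 84 or with plain totals. P2ry12, the ADP receptor of resting microglia, read 19.4, 16.8, 19.8 and 19.7 CPM in AL cerebella and 20.1, 19.0 and 20.2 CPM in PBS cerebella, against 50.7 to 58.9 CPM as means of the other regions. Each cerebellum lay below all 85 other libraries, whose lowest was 31.3 CPM; the difference was -1.45 (SE 0.0378, adjusted p = 4.06e-10, limma). Tmem119, a surface marker of microglia, differed by -1.31 and lost its 2-fold call without AL 63, AL 66, AL 69, PBS 80 or PBS 84, and Cx3cr1, the fractalkine receptor, by -0.97. Trem2 and C1qa differed by -0.19 and -0.14 (adjusted p = 0.186 and 0.317, limma).

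Among 12 astrocyte genes, 9 were higher and 3 lower, with a median of 0.328 (background 35.6% and 39.7% of all genes). Over 2-fold, 3 were higher and 2 lower (background 4.97% and 6.93%). The counts over 2-fold were 4 and 0 with plain totals, and 4 and 2 without AL 68. The glutamate transporters were opposed: Slc1a3 (GLAST), abundant in Bergmann glia, was higher by 1.10, at 1053 to 1468 CPM against 633 CPM, and Slc1a2 (GLT-1) differed by -1.28, at 284 to 354 CPM against 814 CPM. Slc1a3 was over 2-fold only without AL 68 (1.18) and with plain totals. Aqp4, the water channel of astrocyte endfeet, was higher by 1.67 and stood above every region. Of 12 myelin genes none was called higher and 2 were lower, Mal (-0.28) and Opalin (-0.85); with plain totals 3 were higher and 1 lower. Without pons and medulla the direction turned, with 7 higher and 1 lower and a median of 0.299. Mal was not called with the mouse as a replicate block in edgeR (adjusted p = 0.0662) or DESeq2 (adjusted p = 0.0661), nor without AL 69, PBS 72, PBS 80 or PBS 84 (adjusted p = 0.0577 to 0.0868, limma). Mbp, the major myelin basic protein, differed by 0.09 (SE 0.129, adjusted p = 0.523, limma), and by 0.42 (adjusted p = 0.0197) without pons and medulla. Of 8 oligodendrocyte precursor genes 6 were lower and Enpp6 was higher, with Gpr17 at a difference of -1.63. Of 12 endothelial genes 2 were higher and 2 lower, with a median of -0.00546; with plain totals 5 were higher and 1 lower.

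Markers of tissue that a dissection may carry were measured as well, against a background of 35.6% of genes higher and 39.7% lower. Of 12 choroid plexus genes 3 were higher and 1 lower, and 3 and 8 without AL 68; Ttr then differed by -1.27 (adjusted p = 0.287, limma), against 0.55 with AL 68 (adjusted p = 0.778). Tests on the counts gave other calls with the mouse as a replicate block: 7 choroid plexus genes higher and 0 lower in edgeR (median 1.76), and 5 and 0 in DESeq2. There Ttr was called higher in edgeR (adjusted p = 8.02e-05) and DESeq2, where it differed by 6.09 (adjusted p = 1.67e-07). Of 10 meningeal genes 2 were higher and 2 lower, and 1 and 1 without AL 66. Of 5 blood genes 4 were higher (5 without AL 68, 3 without AL 63, AL 69, PBS 80 or PBS 84), with a median of 1.44 and summed levels of 9.03 to 80.2 CPM in the cerebella; Hba-a1 and Hba-a2 are near-identical copies whose reads could be split. Of the 7 noradrenergic genes 5 were tested, with 1 higher and 1 lower, and 1 higher and 4 lower without AL 68. In edgeR with the mouse as a replicate block 3 were higher and 0 lower, and in DESeq2 2 and 1. Dbh differed by 0.10 (adjusted p = 0.922, limma) and, with the block, by 3.91 in edgeR and 6.63 in DESeq2. The part of these markers in the other results was not tested.

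The 2 cohorts, with 4 and 3 animals, were compared next. A test of the difference between them (PBS minus AL) called 0 genes in limma (smallest adjusted p = 0.606), with 1088 genes at an unadjusted p under 0.05. Of the 15 genes with the largest increase and the 15 with the largest decrease, all 30 had the same sign in both cohorts. The rule that named them required this sign, so it is no test of the cohorts. All 30 were also called in each cohort, on values that the rule had used. Among the 6 genes with the smallest p were Lcn2, Drd5, Tgfa and the sex-linked Uba1y and Xist. Lcn2, an iron-binding protein of inflammation, differed by 0.76 in AL and 3.12 in PBS animals; its cerebellum levels were 0.467, 0.677, 1.59 and 0.657 CPM in AL and 9.38, 3.09 and 3.19 CPM in PBS. Its PBS minus AL value was 2.37 (SE 0.351, adjusted p = 0.606, limma). Drd5, a dopamine receptor, differed by -1.72 in AL and -3.30 in PBS animals, with an adjusted p of 0.606 for the cohort difference (limma).

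The 8 treated animals, normalised apart from the controls, gave 11778 calls among 15163 genes (77.7%) and 1982 over 2-fold (13.1%, 789 higher, 5.20%, and 1193 lower, 7.87%). Of 15127 genes tested in both sets, 1814 were over 2-fold in controls and 1980 in treated animals, and 1694 were shared, all in the same direction. That is 93.4% of the control calls and 85.6% of the treated calls. Purkinje cell genes had a median of 3.14, microglia genes of -0.907 and forebrain factors of -3.51 there. Differences in diet or plasma treatment between the sets were not tested here.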

How the data were processed

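The authors deposited raw counts per gene for 238 libraries (21076 genes), unstranded by kit, so reads of overlapping or antisense genes cannot be told apart. Per the submitters' processing notes, Trim Galore 0.3.7, STAR 2.5.3a, DESeq2 and GRCm38 were used; the counting program and annotation are not given in the sources used here. Counts of the 92 control libraries were filtered by edgeR 4.0.16 (filterByExpr by region, minimum count 10), TMM-normalised and turned into log2 CPM with a prior count of 2. Each animal's difference entered limma 3.58.1 (R 4.3.3, eBayes with trend, 7 animals), with Benjamini-Hochberg adjusted p under 0.05; limma's treat tested for more than 2-fold. CPM levels printed are without a prior count. DESeq2 1.42.0 and edgeR's quasi-likelihood test on the counts were alternatives. Scripts were tested on simulated data. Named genes were the 15 largest increases and 15 largest decreases over 2-fold with the same sign in 7 animals and at least 10 CPM, list members, and the 6 smallest p of the cohort difference. The members and lists were chosen with earlier results of these data known. Each mouse gave its cerebellum and its other regions, so libraries were paired by mouse per the labels. Deviations from the mean of each region and treatment were correlated between cerebellum and other regions. The average was 0.0686 in the same mouse (85 pairs), with animals from -0.0167 (AL 69) to 0.234 (PBS 84). Between mice it was -0.0257 (220 pairs). Centring on the group mean makes that value negative, so this contrast does not test the pairing. Nothing in the labels speaks of repeat dissections, so p-values measure the spread between these animals. Some genes that the rule names are not reported here.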

Additional observations from a re-analysis of the deposited data

Results flagged for a closer look

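Single animals lay far from the rest of their group in 24 cases, from 328 sets of values. A set was a named gene's log2 difference, a list's summed cerebellum CPM or the cerebellum library total. Each was taken over the 7 control animals and over the 4 AL animals. A value that stood out in both groups was counted only for the 7 animals, so 24 is not a share of the 328. Chance puts about 1 in 20 sets in this class, before values that stood out in both groups are merged. Over the 7 animals there were 14 such sets, and AL 68 was the animal in 9 of them.

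In AL 68 the difference of Dbh was 7.01, against -1.27 to -0.85 in the other 6 animals, and that of Kl, the klotho gene expressed in choroid plexus, was 4.81 against -3.07 to -0.46. The choroid plexus genes summed to 3880 CPM in its cerebellum (167 to 377 in the others) and the noradrenergic genes to 201 CPM. Ctxn1, a forebrain cortexin, differed by -4.09 in AL 68, Gabra3 by -1.74, Tmem119 by -0.80, Zic2 by 3.23 and Nrxn3 by 0.46, each nearer to 0 than in any other animal. Among the 4 AL animals, AL 68 also lay apart for Lcn2 (1.12), Lhx5 (3.62), Homer3 (3.50), Gli3 (0.25) and Cdon (0.87). The part of the choroid plexus and noradrenergic RNAs in these values was not tested.

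AL 63 lay apart over the 7 animals for Fezf2 (-4.25) and Dlx1 (-3.93), and among AL animals for Neurod2 (2.79) and Nrk (7.01). PBS 84 lay apart for Slc6a5 (5.03), for the summed interneuron genes (2348 CPM against 1782 to 2013) and for the summed ataxia genes (5663 CPM against 4503 to 4919). Among AL animals, AL 66 lay apart for En1 (4.57), and AL 69 for Hoxb5 (-1.38) and the summed metabotropic glutamate receptor genes (585 CPM against 504 to 518).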

How the results depend on the processing

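The counts of genes called over the 7 animals, over 2-fold and beyond every region stayed within 1.5 times their reported values under every alternative run; other scalings, filters, prior counts, reference regions and left-out animals were among them. The cohort difference called 0 genes, but 1 with no filter on low counts, and 0 to 1 when each animal was left out in turn (1 without AL 69, with 1746 genes at an unadjusted p under 0.05). Among named genes past the threshold in the reported test or in the alternative, direction reversed for 4: Dbh (0.10, not called; 0.26 to 0.34 with any other animal left out) differed by -1.04 without AL 68, Slc17a7 by -0.12 and Grm2 by -0.80 against the median of the other regions, and Neurod6 by 0.96 over only the regions sampled in all 7 animals. Genes called in neither also changed sign, such as Ttr (0.55, and -0.26 without AL 66) and Kl (-1.34, and 0.54 in edgeR with the block). In edgeR with the mouse as a replicate block, 2106 genes were over 2-fold, of which 1772 were shared with the 1826 reported; without the block there were 2063, of which 1763 were shared. Of 140 named genes, 130 kept their call or stayed uncalled with the block, Kl among them although its sign changed. The other 10 were Dbh, Fezf2, Gabrq, Hoxb5, Mal, Nr4a2, Slc17a7, Ttr, Uba1y and Xist. With a prior count of 0.5 the difference of 36 moved by more than 1.5 times. Depth limits genes at 0 counts in the cerebellum, for which only a bound can be given.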

Other observations

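Genes of the hedgehog pathway, through which Purkinje cells drive granule cell precursors during development, were mostly higher in the adult cerebellum. Of 12, 10 were higher and 1 lower (background 35.6% and 39.7%), 4 higher by more than 2-fold (background 4.97%; 5 without AL 68), with a median of 0.699. Boc, a co-receptor of Sonic hedgehog, ranged from 76.3 to 99.5 CPM against 14.2 CPM in the other regions and differed by 2.89 (SE 0.0644). The co-receptors Cdon and Gas1 differed by 1.51 and 1.31, the receptor Ptch1 by 1.36 and the transcription factor Gli1, a target of the pathway, by 2.21. Hhip, an inhibitor that binds the ligand, differed by -0.62, and Gli3 differed by -0.15 (adjusted p = 0.172, limma).

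Of 9 voltage-gated sodium channel genes 5 were higher and 2 lower, the latter both by more than 2-fold, with a median of 0.368. The 7 called of 9 compare with 75.3% of all genes, and the 2 lower by more than 2-fold with 6.93%. Scn3a, an alpha subunit, ranged from 1.37 to 6.91 CPM against 56.8 CPM and differed by -4.17. Scn3b, a beta subunit, ranged from 1.69 to 12.9 CPM against 132 CPM and differed by -5.04. Both were highest in the AL 68 cerebellum. Scn2a and Scn2b differed by 0.92 and 0.81.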
